A study of Drosophila melanogaster with 14 samples.

Results

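Myosin and the proteins that build the thick filament are the subject of this account: the muscle myosin heavy chain Mhc, its light chains Mlc1 and Mlc2, the filament proteins Prm, fln and Mf, the M-line protein Unc-89 and the myosin chaperone unc-45. These 8 genes were chosen by name and not by any measured value, as the rows of the deposited tables whose symbol equals a name on the list. All 8 were present among the 17890 genes of the table for the indirect flight muscle (IFM) and among the 17490 genes of the table for the larval wing disc.

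RNA-seq libraries were made from Drosophila IFM, dissected from pupae at 96 h after puparium formation (APF), and from wing discs of larvae in the third instar, all reared alike. The 8 IFM libraries fall into 4 groups of 2: Tet null, which lacks the Tet transcript, wild type (the w1118 strain), Tet CD, in which the catalytic site of TET is inactivated, and Tet-GFP, a knock-in of GFP into the Tet gene. The Tet CD allele was made in the Tet-GFP background, so that Tet CD carries the knock-in as well, and Tet-GFP is its control. The 6 wing disc libraries are 3 of Tet null and 3 of wild type. Tet is absent or altered in the whole animal and not in muscle alone. The Tet CD and Tet-GFP libraries are named here by the numbers 1 and 3 of their table columns, and the first Tet null IFM library carries a wing disc tissue label although its title, age and table are those of IFM.

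In muscle, bipolar thick filaments of myosin slide along thin filaments of actin. Drosophila makes all its muscle myosin heavy chains from the Mhc gene by alternative splicing, and each heavy chain binds an essential light chain (Mlc1) and a regulatory light chain (Mlc2). Paramyosin and its shorter form miniparamyosin (Prm) and myofilin (Mf) lie in the filament, flightin (fln) binds the myosin rod and is needed for the length and stiffness of flight muscle filaments, the giant kinase-like protein obscurin (Unc-89) sits at the M-line where filaments are held in register, and the chaperone Unc-45 works with Hsp90 to fold the myosin head. The larval wing disc holds an epithelium and the progenitors of the adult flight muscle, which have not yet built sarcomeres.

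On the dm6 assembly Mhc spans chromosome arm 2L from 16766566 to 16788766 on the plus strand. Mlc1 lies on 3R from 27657078 to 27660177, Mlc2 on 3R from 30171438 to 30174551 and Mf on 3R from 15170625 to 15181510, all on the minus strand, and unc-45 lies on 3R from 8033301 to 8037403 on the plus strand. Prm lies on 3L from 8732858 to 8745310 and fln on 3L from 19989551 to 19991220, both on the minus strand, and Unc-89, which the annotation names Obsc, lies on 2R. The values cover all exons of a gene, so that splice forms of Mhc or the paramyosin and miniparamyosin forms of Prm are not told apart. Of the exon bases of fln, 61.6% are shared with the antisense gene asRNA:CR45161, which was listed at 0.249 to 1.90 RPKM in IFM, and because the sources used here do not say whether counting used the strand, the reads of the pair cannot be told apart.

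Levels are given as RPKM, the reads on a gene per kilobase of its exons and scaled to the reads of the library, so that genes of different length can be set side by side. From the spacing of the low values, reads on genes came to between 33.3 and 46.7 M per IFM library and between 16.9 and 31.5 M per wing disc library. In Tet null IFM the Tet gene had 0.405 and 0.219 RPKM where the other 6 IFM libraries had 2.04 to 4.19 RPKM, and at 0.352 to 0.475 RPKM in Tet null discs against 148 to 205 RPKM in wild type. Disc epithelium markers summed to 8.99 to 11.6 RPKM over the 8 IFM libraries and to 341 to 495 RPKM over the 6 disc libraries, so the IFM library labelled as wing disc had the markers of muscle. Wild-type disc library 2 stood apart, with a median of 2.13 RPKM over odorant and gustatory receptor genes against at most 0.135 RPKM in the other 5 discs, which adds to genes of low level there. The study's methods call the samples biological replicates, and neither they nor the labels say how the collections were separated, so that p-values measure the spread between these samples.

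The motor subunits stood at the top of the IFM transcriptome. Mlc2 was the highest of the 8 genes in every IFM library, between 9631 and 13314 RPKM, and ranked 2 or 3 among the genes of the nuclear genome. Mhc followed at 5727 to 7841 RPKM and Mlc1 at 4892 to 5728 RPKM. In wild type the mean of Mlc2 was 1.5 times that of Mhc, and the mean of Mhc was 1.22 times that of Mlc1, with no overlap of the libraries at either step. The next gene lay an order of magnitude lower: the mean of Mlc1 was 9.51 times that of Unc-89, which ran from 402 to 605 RPKM over the 8 libraries. Prm ran from 228 to 443 RPKM, fln from 73.1 to 248 RPKM and Mf from 70.2 to 135 RPKM. Mf and fln overlapped in wild type and could not be ordered there, and Prm and fln overlapped in Tet-GFP. The chaperone unc-45 was the lowest in every group, at 3.19 to 12.8 RPKM. Together the 8 genes took 8.56 to 11.8% of the reads on genes in IFM, of which Mhc alone took 5.03 to 7.16%.

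**Figure D1:**
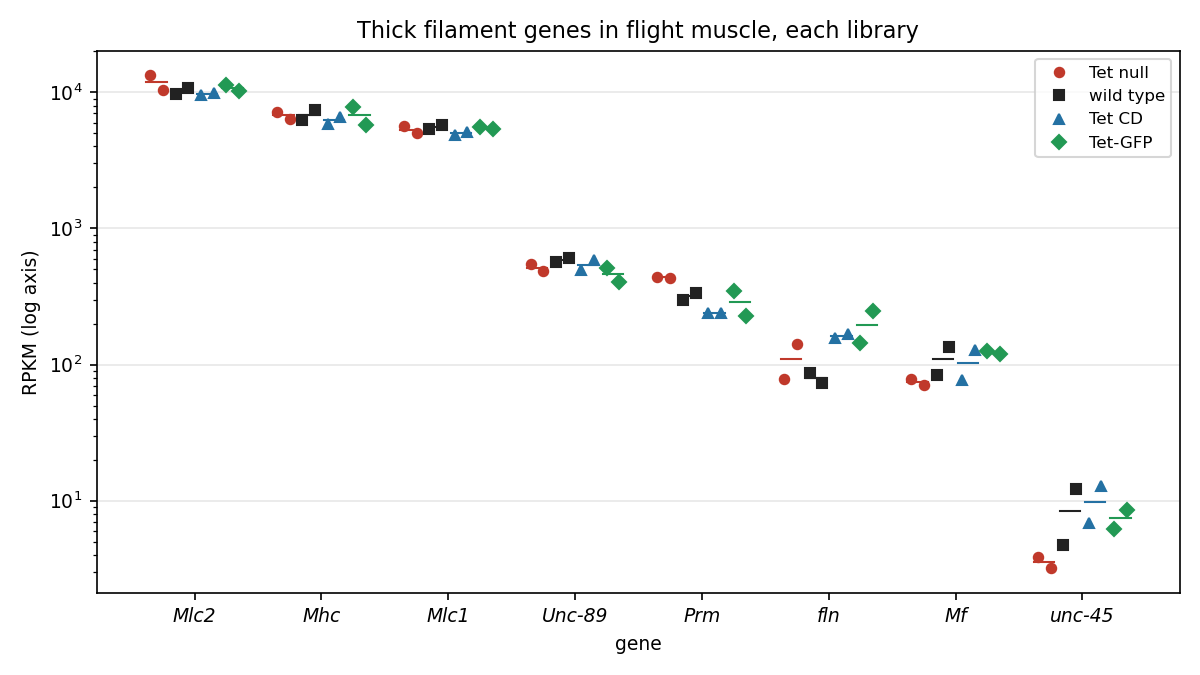
RPKM (log axis) of the 8 genes in the 8 IFM libraries, with each point a library and each bar the mean of a group of 2. The light chains and Mhc lie at 4892 RPKM or more in every library, while unc-45 is at 12.8 RPKM or less, and the Tet null points lie above all others for Prm and below all others for unc-45.

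The first comparison set Tet null IFM against wild type and asked whether thick filament transcripts differ when Tet is missing. Mhc was at 7193 and 6371 RPKM in Tet null and at 6218 and 7360 RPKM in wild type. The libraries of the groups interleaved, and the means, 6782 ± 581 RPKM and 6789 ± 808 RPKM (SD, n = 2 each), were nearly the same. The log2 fold change of Mhc was 0.00 with a standard error of 0.20 and a 95% interval of -0.54 to 0.54, so that a change of up to about 1.5-fold either way lies inside the interval (limma, adjusted P = 0.998). In a bulk sample such as these, fewer cells of a type and less RNA per cell cannot be told apart.

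The essential light chain Mlc1 was at 5637 and 4982 RPKM in Tet null and at 5416 and 5728 RPKM in wild type, again with overlap. The regulatory light chain Mlc2 was at 13314 and 10429 RPKM in Tet null and at 9639 and 10742 RPKM in wild type, and the first Tet null library held the highest value of all. The log2 fold changes were -0.07 ± 0.19 (SE) for Mlc1 (limma, adjusted P = 0.845) and 0.21 ± 0.21 for Mlc2 (limma, adjusted P = 0.574). None of the motor subunits passed the test.

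Among the filament proteins, Prm was at 443 and 433 RPKM in Tet null and at 300 and 333 RPKM in wild type. Both Tet null libraries were above both wild-type libraries, and the means, 438 ± 7.18 RPKM and 317 ± 23.3 RPKM, differed 1.38-fold. On the log2 scale the difference was 0.47 with a standard error of 0.23 and a 95% interval of -0.13 to 1.07 (limma, adjusted P = 0.270). Mf went the other way in level, with 77.9 and 70.2 RPKM in Tet null and 84.4 and 135 RPKM in wild type. Its groups did not overlap, but the wild-type libraries were farther from each other than the nearer of them was from Tet null, and the log2 fold change was -0.53 ± 0.32 (SE; limma, adjusted P = 0.365). Flightin (fln) was at 78.4 and 142 RPKM in Tet null and at 86.2 and 73.1 RPKM in wild type. The groups overlapped, and the log2 fold change was 0.41 ± 0.37 (SE; limma, adjusted P = 0.533).

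Obscurin (Unc-89) was at 543 and 484 RPKM in Tet null and at 567 and 605 RPKM in wild type. The groups did not overlap, with Tet null lower, and the log2 fold change was -0.19 ± 0.23 (SE; limma, adjusted P = 0.633). The chaperone unc-45 was at 3.88 and 3.19 RPKM in Tet null and at 4.72 and 12.2 RPKM in wild type. Both Tet null libraries lay below both wild-type libraries, which themselves differed by more than 2-fold. The mean level was 3.54 ± 0.488 RPKM in Tet null and 8.44 ± 5.26 RPKM in wild type, and the log2 fold change of -1.01 had a standard error of 0.47 and a 95% interval of -2.25 to 0.22 (limma, adjusted P = 0.253). The value rested on the second wild-type library: without it the log2 fold change was -0.38, and without the first it was -1.65. The study, with DESeq2, reported unc-45 as downregulated from these libraries, so that its direction here is not independent evidence.

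In this comparison 0 of the 8 genes were called, where a call needs a fold change over 1.5 and an adjusted P under 0.05, while 8.29% of the 8466 genes tested were called, 5.50% higher and 2.79% lower in Tet null. The groups of 2 did not overlap for 4 of the 8 genes, Prm, Mf, Unc-89 and unc-45, against 59.2% of all genes tested, 29.0% with Tet null higher, as for Prm, and 30.2% with Tet null lower, as for the other 3. All genes together had a median log2 fold change of -0.03. With limma, 2268 genes had an unadjusted p under 0.05 in this comparison, and none of the 8 was among them.

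The same Tet null libraries were then set against all 3 lines that transcribe Tet, in a fit over the 8 IFM libraries. For Prm the other lines added 239 and 240 RPKM in Tet CD and 345 and 228 RPKM in Tet-GFP, so that both Tet null libraries, at 433 RPKM or more, lay above the other 6, which ran from 228 to 345 RPKM. For Prm the fitted log2 fold change was 0.66 with a standard error of 0.19 and a 95% interval of 0.20 to 1.12, a 1.58-fold higher level that missed the threshold after adjustment (limma, adjusted P = 0.0686). Over the other settings tried, the adjusted P of Prm ran from 0.0424 to 0.242, and it was under 0.05 only when Tet-GFP library 1 was left out.

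For unc-45 the other lines added 6.84 and 12.8 RPKM in Tet CD and 6.22 and 8.58 RPKM in Tet-GFP. Both Tet null libraries, at 3.88 RPKM or less, were below all 6 others, the lowest of which was wild-type library 1 at 4.72 RPKM. The log2 fold change was -1.09 with a standard error of 0.39 and a 95% interval of -2.05 to -0.14, that is a level 2.13-fold lower in Tet null, and it did not pass the adjusted threshold (limma, adjusted P = 0.108). The lower level in Tet null was thus seen against each of the 3 lines, but these comparisons share the Tet null libraries.

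Mf in the other lines was at 77.5 and 128 RPKM in Tet CD and at 125 and 120 RPKM in Tet-GFP. Tet CD library 1 was just under the higher Tet null library, so that the groups overlapped, and the log2 fold change was -0.56 ± 0.27 (SE; limma, adjusted P = 0.190). The motor subunits again stayed near no difference, with a log2 fold change of 0.05 and a 95% interval of -0.35 to 0.44 for Mhc, -0.01 for Mlc1 and 0.21 for Mlc2. The values were -0.35 for fln and -0.03 for Unc-89. Of the 8 genes 0 were called, against 11.8% of the 8344 genes tested, 6.80% higher and 4.99% lower, and the groups were apart for 2 of the 8, Prm and unc-45, against 35.1% of all genes, 18.2% higher and 16.9% lower. In this fit 2 of the 8, Prm and unc-45, were among the 2912 genes with an unadjusted p under 0.05.

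Against Tet-GFP alone, Tet null libraries were apart for 4 of the 8 genes, with Prm higher and unc-45, Mf and fln lower, where 63.1% of the 8369 genes tested were apart, 30.1% higher and 33.0% lower. The log2 fold changes were 0.64 ± 0.30 (SE) for Prm, -0.96 ± 0.24 for unc-45, -0.72 ± 0.23 for Mf and -0.84 ± 0.46 for fln. Their adjusted P from limma ran from 0.141 for unc-45 to 0.305 for fln, and 0 of the 8 were called, against 0.0119% of all genes. Mhc, Mlc1, Mlc2 and Unc-89 were at 0.01, -0.05, 0.13 and 0.17 on the log2 scale, each less than its standard error.

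**Figure D2:**
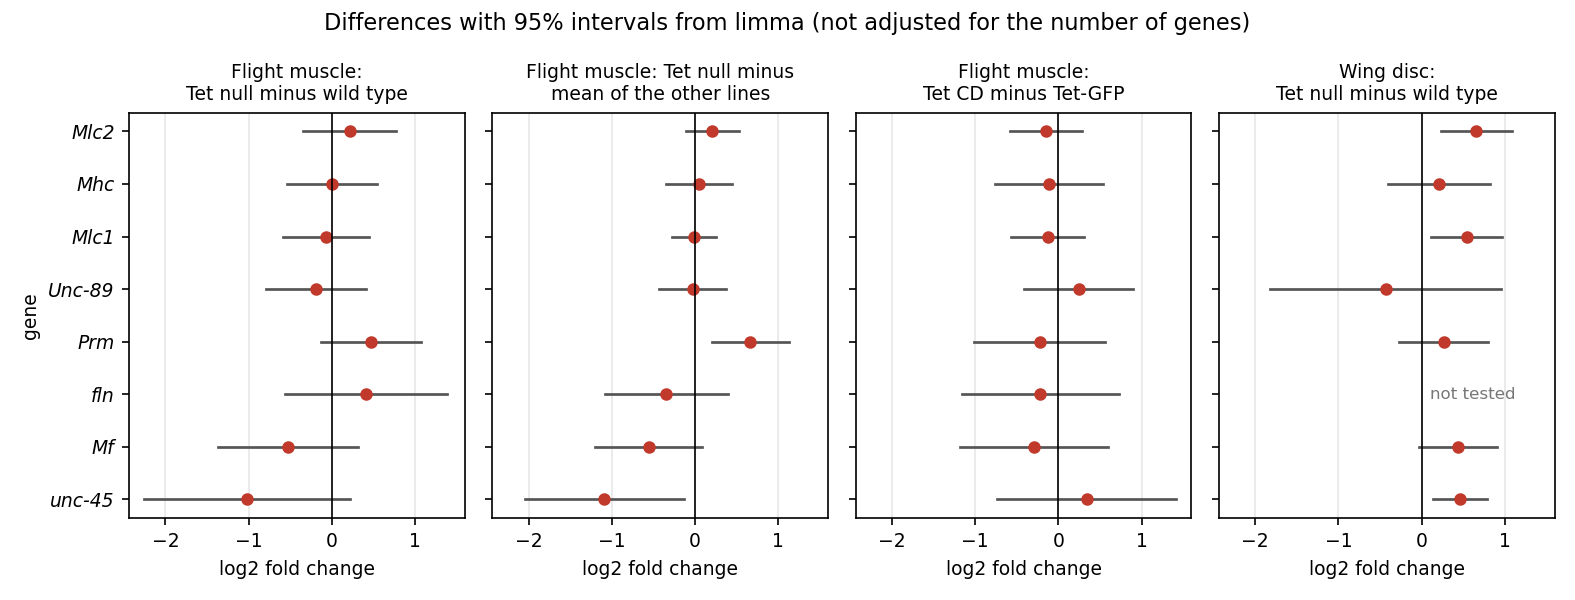
Log2 fold change of each gene (points) with its 95% interval (lines) on log2(RPKM + 0.5), for Tet null against wild type, Tet null against the other lines and Tet CD against Tet-GFP in IFM and for Tet null against wild type in wing discs. The intervals of Mhc, Mlc1 and Mlc2 include 0 in each IFM panel, unc-45 lies at -1.01 and -1.09 in the Tet null panels of IFM, and Mlc2 lies at 0.66 in wing discs.

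Markers of other cells moved with the Tet null group in IFM. Of the lists that were higher, the 7 neuronal markers summed to 54.2 and 63.1 RPKM in Tet null and to 7.71 to 28.5 RPKM in the other 6 libraries, and the 5 glial markers to 51.4 to 97.2 RPKM against 10.1 to 33.0 RPKM. Of the defining genes, elav, a marker of all neurons, overlapped, at 1.32 and 2.09 RPKM in Tet null and 1.40 to 1.84 RPKM elsewhere, the glial gene gcm was at or near 0 in every IFM library, and the glial gene repo was at 1.25 to 1.39 RPKM in Tet null against at most 0.765 RPKM elsewhere. Lower in Tet null was the sum of the 5 markers of trachea and cuticle, at 156 to 314 RPKM against 332 to 1126 RPKM. Most of it is Cpr64Ad, at 87.9 to 168 RPKM against 306 to 1005 RPKM, while the other genes of that list overlapped. Against Tet-GFP alone, 4 of the 5 had a positive log2 fold change. The sum of the 5 muscle progenitor markers was also lower, at 17.9 to 18.7 RPKM against 20.2 to 26.0 RPKM. Most of it is Mef2, also a fibre marker, which overlapped. Of the rest, zfh1 was lower, at 3.65 to 4.32 RPKM against 5.35 to 8.48 RPKM, ct overlapped, and twi and Him were near 0. The sum of the 5 IFM fibre markers, most of which is Act88F, overlapped, at 14780 to 20338 RPKM in Tet null and 16111 to 19900 RPKM in the other lines, while salm, a transcription factor gene among them, was at 23.2 and 28.4 RPKM in Tet null and 31.0 to 41.6 RPKM in the others, without overlap. Sums also overlapped for the 7 markers of tubular and larval muscle, at 456 to 542 RPKM and 190 to 656 RPKM. The part of these cells in the values of Prm, Mf and unc-45 was not tested.

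Ratios within a library do not depend on its scale. Prm stood at 6.15 and 6.79% of Mhc in the Tet null libraries, at 4.83 and 4.52% in wild type, at 4.07 and 3.66% in Tet CD and at 4.40 and 3.97% in Tet-GFP, so that both Tet null libraries were above the other 6. The log2 ratio of unc-45 to Mhc was -10.86 and -10.96 in Tet null and ran from -10.36 to -8.99 elsewhere, and that of Mf to Mhc was -6.53 and -6.50 in Tet null and ran from -6.24 to -5.58 elsewhere. Measured against Mhc, Mf was thus lowest in both Tet null libraries although its RPKM overlapped. The light chains kept closer to Mhc: over all 8 libraries Mlc1 was 0.711 to 0.939 times Mhc and Mlc2 1.45 to 1.85 times Mhc. The ratio of the light chains to each other, Mlc2 over Mlc1, was 2.36 and 2.09 in Tet null and 1.78 to 2.04 in the other 6. These ratios are descriptions without a test.

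**Figure D3:**
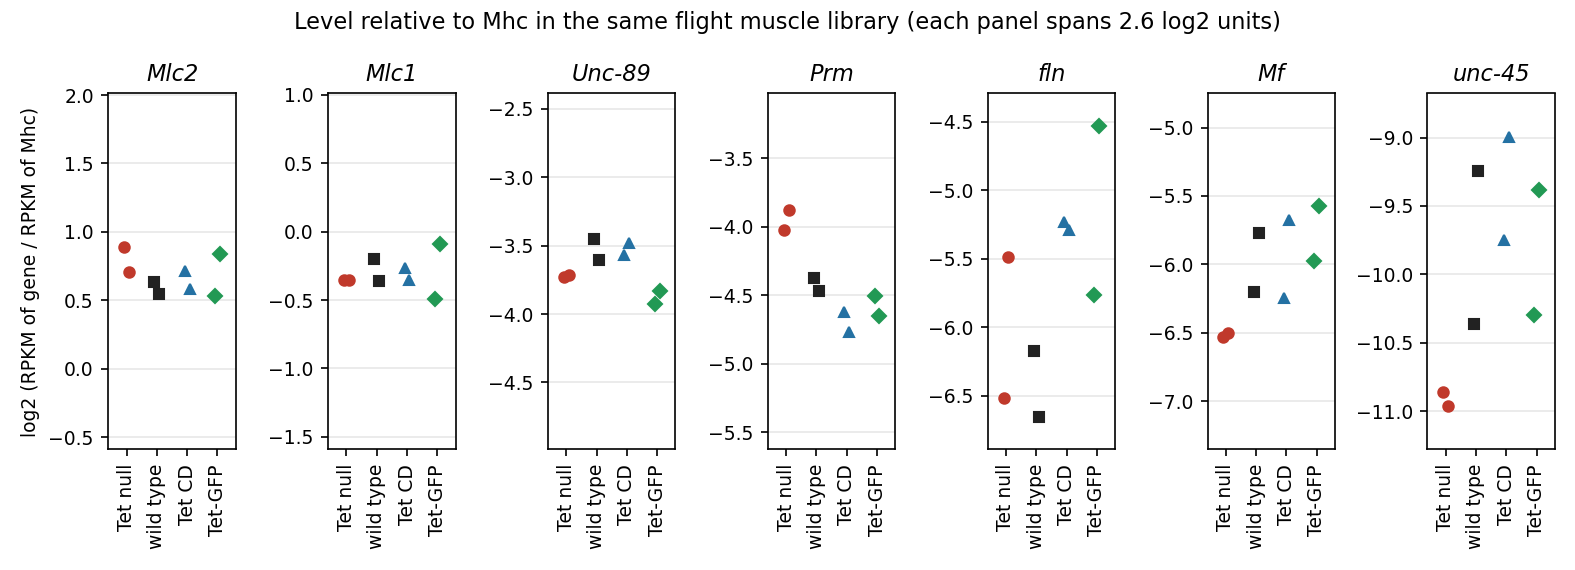
Log2 ratio of each gene to Mhc within each IFM library, 1 point per library. The Tet null points lie above the others for Prm, at 6.15 and 6.79% of Mhc, and below them for Mf and unc-45.

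The Tet CD group asked whether loss of the catalytic activity alone changes the same genes, with Tet-GFP as control. Mhc was at 5878 and 6550 RPKM in Tet CD and at 7841 and 5727 RPKM in Tet-GFP, which enclosed the Tet CD values. Mlc1 was at 4892 and 5126 RPKM in Tet CD and at 5574 and 5376 RPKM in Tet-GFP, and Mlc2 at 9631 and 9815 RPKM against 11354 and 10222 RPKM. These light chains were the 2 of 8 genes whose groups did not overlap, both lower in Tet CD but turning to 0.10 and 0.08 on the log2 scale when the libraries were scaled to the same total without mitochondrial genes, against 34.2% of the 8141 genes tested, 15.4% higher and 18.8% lower. Their log2 fold changes were small, at -0.13 ± 0.15 (SE) and -0.15 ± 0.15. The other genes were at -0.11 for Mhc, -0.23 for Prm, -0.22 for fln, -0.30 for Mf, 0.24 for Unc-89 and 0.34 for unc-45. The adjusted P from limma ran from 0.980 to 0.989, and 0 of the 8 genes were called, as were 0% of all genes, of which 494 had an unadjusted p under 0.05. Markers of other cells also differed here. The 5 fat body markers summed to 156 to 262 RPKM in Tet CD and to 50.5 to 65.3 RPKM in Tet-GFP. All 5 were apart with Tet CD higher, where 15.4% of all genes were, and 0 were called. The part of such cells in the values was not tested.

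The difference between the Tet null effect and the Tet CD effect was tested over the 8 libraries, each effect taken against its own control. It was -1.36 ± 0.68 (SE) for unc-45 (limma, adjusted P = 0.337) and 0.69 ± 0.33 for Prm (limma, adjusted P = 0.317), with 95% intervals of -3.01 to 0.30 and -0.11 to 1.5. For the other 6 genes the difference lay between -0.44 for Unc-89 and 0.63 for fln. No member of the list was called, against 0.683% of the 8344 genes tested, so that a difference between the effects was not shown for any of the 8.

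The control lines were compared with each other because the knock-in may itself matter. Flightin (fln) was at 144 and 248 RPKM in Tet-GFP and at 86.2 and 73.1 RPKM in wild type. Both Tet-GFP libraries were above both of wild type, and Tet CD, which carries the same knock-in, was at 157 and 167 RPKM, also above both. On the log2 scale the difference of fln between Tet-GFP and wild type was 1.24 with a standard error of 0.34 and a 95% interval of 0.30 to 2.19, a 2.37-fold higher level (limma, adjusted P = 0.392). Unc-89 was lower in Tet-GFP, at 516 and 402 RPKM against 567 and 605 RPKM, with a log2 fold change of -0.36 ± 0.21 (SE; limma, adjusted P = 0.633). The groups were apart for these 2 of the 8 genes against 42.9% of the 8156 genes tested, 20.6% higher and 22.4% lower. The remaining 6 genes lay between -0.17 for Prm and 0.20 for Mf and overlapped, and 0 of the 8 were called, as were 0% of all genes, of which 843 had an unadjusted p under 0.05 with limma. Of the 8 genes fln had the widest range over libraries after unc-45, with a highest value 3.39 times the lowest, against 4.02 times for unc-45 and 1.17 times for Mlc1.

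In wing discs the thick filament genes were transcribed at a small part of their IFM level, except unc-45, for which no order of the tissues could be given. In wild type the mean level in IFM was 1272 times that in discs for Mhc, 480 times for Mlc2, 335 times for Mlc1, 67.5 times for Prm and 18.1 times for Mf. The ratio was 499 for Unc-89 and 234 for fln, and without wild-type disc library 2, whose background weighs on low genes, it was 1787 and 2282. For unc-45 the tissues overlapped, with 4.72 and 12.2 RPKM in wild-type IFM and 9.40 to 11 RPKM in discs, and the mean in discs was 1.22 times that in IFM. The genes of the mitochondrial genome are listed at 0 in every disc library and took 31.0 to 47.8% of the reads in IFM, and with those reads left out of the IFM scale, an alternative added after seeing the data, unc-45 was at 9.04 and 17.6 RPKM in IFM and its mean there was 1.3 times that in discs. The same change raised the ratio of Mhc to 2115 and that of Mf to 29.5. The tables were normalised separately, and these ratios set levels side by side without a test. The tables also list unc-45 under different identifiers. With the exon length of the identifier used in IFM, its disc values did not come to whole numbers of reads. The exons counted for unc-45 may thus differ between the tissues, which limits its ratio. In discs Mlc2 and Mlc1 led, followed by unc-45, Mf, Mhc, Prm, Unc-89 and fln, and neighbours overlapped at Mlc2 and Mlc1, at Mf and Mhc, at Mhc and Prm and, in wild type, at Unc-89 and fln. Within a disc library the light chains kept a close ratio, with Mlc2 at 1.34 to 1.40 times Mlc1 in Tet null and 1.20 to 1.33 times in wild type, while Mlc2 ran from 3.78 to 7.56 times Mhc.

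**Figure D4:**
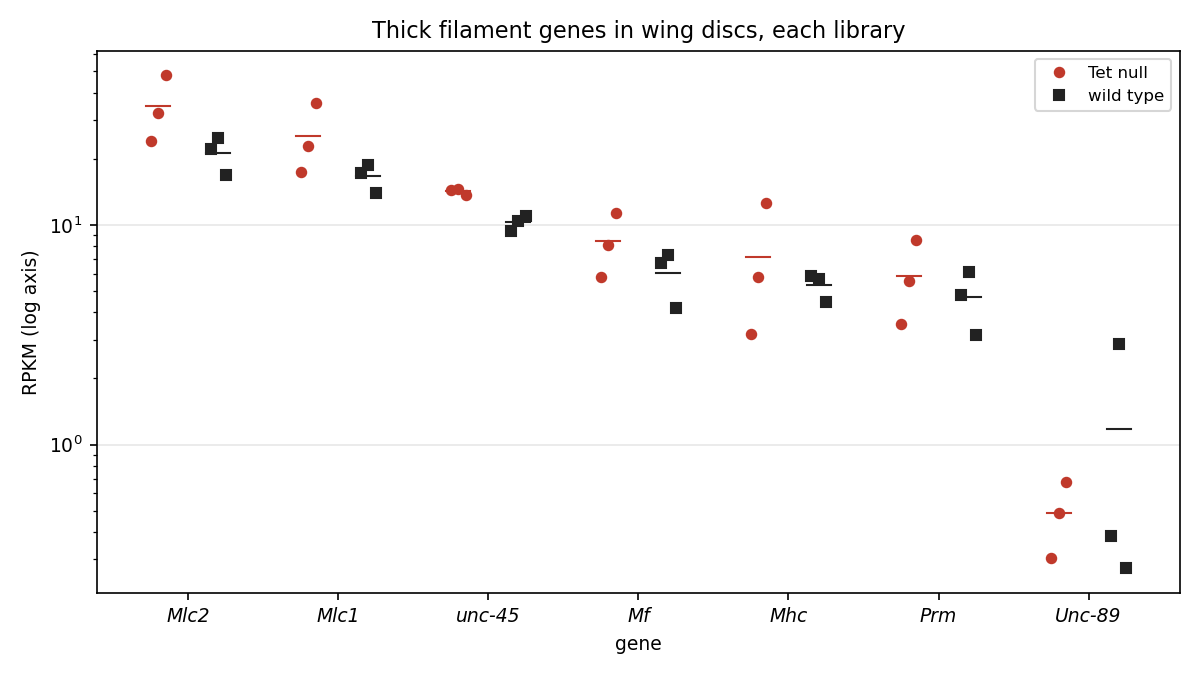
RPKM (log axis) of 7 of the genes, without fln, in the 6 wing disc libraries, with each point a library and each bar the mean of a group of 3. Tet null library 3 holds the highest value of Mhc, Mlc1, Mlc2, Prm and Mf, and unc-45 is the gene whose groups do not overlap.

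Within the disc, Tet null was compared with wild type. Mhc was at 3.18, 5.81 and 12.5 RPKM in Tet null libraries 1, 2 and 3 and at 5.87, 5.70 and 4.44 RPKM in wild type. The Tet null libraries spread on both sides of the wild type, and the log2 fold change was 0.21 ± 0.29 (SE; limma, adjusted P = 0.667). Mlc1 was at 17.4, 23 and 35.8 RPKM in Tet null and at 17.3, 18.7 and 14 RPKM in wild type, and Mlc2 at 24.0, 32.1 and 47.9 RPKM against 22.2, 24.8 and 16.8 RPKM. In both light chains Tet null libraries 2 and 3 were above every wild-type library and library 1 lay among them. The log2 fold change was 0.54 ± 0.20 (SE) for Mlc1 (limma, adjusted P = 0.155) and 0.66 ± 0.21 for Mlc2, 1.58-fold higher (limma, adjusted P = 0.0761).

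The chaperone unc-45 was at 14.4, 14.6 and 13.7 RPKM in Tet null discs and at 9.40, 10.4 and 11 RPKM in wild type. All 3 Tet null libraries were above all 3 of wild type, with means of 14.3 ± 0.461 RPKM and 10.3 ± 0.811 RPKM (SD, n = 3 each). The log2 fold change was 0.46 ± 0.16 (SE) with a 95% interval of 0.13 to 0.78, 1.37-fold higher (limma, adjusted P = 0.106). It was the only one of the 8 genes whose groups did not overlap in discs, against 25.4% of the 12631 genes tested, and 0 of the 8 genes were called, against 4.15% of all genes, 1.67% higher and 2.48% lower.

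Prm was at 3.55, 5.57 and 8.51 RPKM in Tet null discs and at 4.78, 6.11 and 3.16 RPKM in wild type, and Mf at 5.81, 8.07 and 11.4 RPKM against 6.67, 7.31 and 4.18 RPKM. Their groups overlapped, and the log2 fold changes were 0.26 ± 0.26 (SE) for Prm and 0.43 ± 0.23 for Mf (limma, adjusted P = 0.605 and 0.329). Unc-89 was at 0.304, 0.489 and 0.674 RPKM in Tet null and at 0.382, 2.87 and 0.274 RPKM in wild type, the high value being that of the library with the raised background, through which alone Unc-89 passed the limit on low values, and its log2 fold change was -0.43 ± 0.67 (limma, adjusted P = 0.692). Flightin (fln) was below the limit on low values and was not tested. It was at 0, 0.0959 and 0.0493 RPKM in Tet null, about 0, 3 and 2 reads, and at 0.0358, 0.949 and 0.0340 RPKM in wild type, about 1, 28 and 1 reads, where the library with the raised background again held the high value. The count of 0 allows a level of up to 0.0782 RPKM, counting error only.

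The replicate numbers were taken to pair the disc samples, although neither the labels nor the methods state a pairing. It was read from these data, where same-numbered libraries deviated together with r of 0.155 to 0.303 and 1 pair of different numbers had 0.191. A call that needs the block thus rests on a choice made from the same values, and is no independent support for a difference. A fit with the number as a replicate block gave the same differences, with smaller errors for the genes tested other than Unc-89. Mlc2 was then called, with a log2 fold change of 0.66 ± 0.14 (SE; limma, adjusted P = 0.000111), in a fit that called 7.41% of all genes, 2.72% higher and 4.69% lower. Mlc1 and unc-45 also passed the limit on P (limma, adjusted P = 0.0029 and 0.0254) but lay under the limit on the fold change, and Mhc, Prm, Mf and Unc-89 did not pass. With the length correction added to the block, Mlc2 was not called (0.77; limma, adjusted P = 0.0924), nor was Mlc1 (0.72; limma, adjusted P = 0.103). Without wild-type disc library 2 and without the block, the log2 fold change was 0.77 for Mlc2, 0.63 for Mlc1, 0.47 for unc-45, 0.57 for Mf, 0.46 for Prm and 0.26 for Mhc, and none was called (limma, adjusted P = 0.187 for Mlc2 and 0.0748 for unc-45).

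Tet null disc library 3 held the highest value of Mhc, Mlc1, Mlc2, Prm and Mf, and the values depended on it: without it the log2 fold change of Mlc2 was 0.40, that of Mlc1 0.27 and that of Mhc -0.27, while that of unc-45 was 0.48. Without Tet null disc library 1, the lowest of its group in these genes, Mlc2 and Mlc1 were called, at 0.89 and 0.78 (limma, adjusted P = 0.0025 and 0.0139). The 7 markers of tubular and larval muscle were also lowest in Tet null library 1 and highest in library 3 of that group, summing to 84.5, 121 and 149 RPKM in Tet null libraries 1, 2 and 3 and to 132, 104 and 81.2 RPKM in wild type, while the 5 markers of muscle progenitors were at 44.7 to 51.4 RPKM in Tet null and 64.9 to 93.1 RPKM in wild type. Fat body markers summed to 191 to 276 RPKM in Tet null against 38.1 to 103 RPKM, and haemocyte markers to 20.1 to 37.5 RPKM against 7.08 to 18.9 RPKM. The part of larval muscle or of these other tissues in the disc values was not tested.

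Other sarcomere genes, other myosins and genes of chaperones, kinases and phosphatase were read from lists of known function. Of 28 other sarcomere genes tested in Tet null against wild-type IFM, 0 were called, and the median log2 fold change was -0.06. Of all genes tested, 8.29% were called. With DESeq2 on these libraries the study reported tmod and tn as upregulated and sals, CG1674 and bent as downregulated. The lack of a call here is thus no evidence that these genes were unchanged. Why the 2 fits differ was not tested. The largest differences were those of tmod, tropomodulin, which caps the pointed ends of thin filaments, at 2.13 (limma, adjusted P = 0.0660), and tn, the fly TRIM32, at 1.21 (limma, adjusted P = 0.0539). The level of tmod was 37.2 to 45.4 RPKM in Tet null and 3.13 to 14 RPKM in the other 6 libraries. Against the 3 lines together 1 of the 28 was called, where 11.8% of all genes tested were. It was CG1674, with a log2 fold change of -0.81, which the study also named from these libraries (limma, adjusted P = 0.040). CG1674 was at 121 to 142 RPKM in Tet null and at 202 to 261 RPKM in the other 6 libraries, which did not overlap. The call was lost when any of the 8 libraries but Tet CD library 1 was left out, with an adjusted P from limma of up to 0.182.

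Of these 4 lists, which are the other sarcomere genes, the chaperone partners of Unc-45, the other myosins and the myosin light chain kinases and phosphatase, the chaperone partners had the lowest median in Tet null IFM, -0.38 over 6 genes tested against wild type and -0.37 against the 3 lines. In Tet-GFP against wild type their median was 0.12. Against wild type 0 of 6 were called, where 8.29% of all genes tested were. The largest values were 0.96 for Droj2, a J-domain cochaperone of Hsp70, and -0.94 for Hsp83, the fly Hsp90 (limma, adjusted P = 0.10 and 0.184). Against the 3 lines 2 of 6 were called lower and 0 higher, where 4.99% of all genes tested were called lower and 6.80% higher. Hsp83, on which Unc-45 relies to fold myosin, was at 38.6 to 60.4 RPKM in Tet null and at 77.5 to 163 RPKM in the other 6 libraries, and its log2 fold change was -1.16 (limma, adjusted P = 0.0429). Cdc37, an Hsp90 cochaperone for kinases, was at 1.55 to 1.86 RPKM against 2.98 to 3.66 RPKM, and its log2 fold change was -0.73 (limma, adjusted P = 0.0264). Both had groups that did not overlap, with Tet null lower, the side on which unc-45 also lay. Of the 6 partners, 4 had a negative and 2 a positive log2 fold change. Droj2 was higher in Tet null without overlap, at 64.0 to 83.3 RPKM against 27.9 to 50.5 RPKM, and was not called. The calls rested on all 8 libraries: that of Hsp83 was lost when any of them was left out (limma, adjusted P 0.0523 to 0.199), and that of Cdc37 was kept in 3 of the 8 such fits, those without Tet CD library 1, Tet-GFP library 1 or Tet-GFP library 3 (limma, adjusted P up to 0.142 in the rest).

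Of the 7 genes listed as myosin light chain kinases and phosphatase, 0 were called against wild type (median 0.05), where 8.29% of all genes tested were. Mbs and sqa had the largest values, -1.03 and 0.77 (limma, adjusted P = 0.102 and 0.119). Which light chain these genes act on in flight muscle was not tested, and phosphorylation of Mlc2 was not measured. Against the 3 lines 1 was called higher and 1 lower, where 6.80% of all genes tested were called higher and 4.99% lower. The myosin light chain kinase-like gene sqa was at 17.6 to 17.9 RPKM in Tet null and at 6.89 to 11.3 RPKM elsewhere, a log2 fold change of 0.97 (limma, adjusted P = 0.0341). Mbs, the myosin-binding subunit of the phosphatase, was at 9.28 to 9.73 RPKM in Tet null and at 15.7 to 24.5 RPKM elsewhere, a log2 fold change of -0.95 (limma, adjusted P = 0.0431). Neither sqa nor Mbs overlapped between Tet null and the other lines. Of the 7 genes, 2 were apart with Tet null higher and 2 with Tet null lower. Of all genes tested, 18.2% were apart higher and 16.9% lower. Besides sqa, gek was higher, at 2.34 to 2.89 RPKM against 1.58 to 2.29 RPKM. Besides Mbs, Rok was lower, at 2.34 to 2.44 RPKM against 2.63 to 3.51 RPKM. With a library left out, sqa was called in 2 of 8 fits, those without a Tet-GFP library, and Mbs in 1 of 8, that without Tet CD library 1, and the highest adjusted P from limma was 0.161 for sqa and 0.186 for Mbs.

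Of 12 other myosins tested against wild type, 1 was called higher, where 5.50% of all genes tested were. It was Myo81F, an unconventional myosin gene at 0.117 and 0.137 RPKM in wild type and 1.09 and 1.12 RPKM in Tet null. Its log2 fold change was 1.36 (limma, adjusted P = 0.0372). Myo81F passed the limit on low values only through the Tet null libraries, so that a gene selected in this way had to differ, and the call is no support for a change. Without either wild-type library it was not called (limma, adjusted P = 0.0829 and 0.0984). The median of the list was 0.10. Against the 3 lines 0 of 11 were called, where 11.8% of all genes tested were. The largest values were 1.2 for jar, the class VI myosin (limma, adjusted P = 0.0636), and 0.47 for Myo95E, which passed the limit on P but not on the fold change (limma, adjusted P = 0.0465). In Tet CD against Tet-GFP, in Tet-GFP against wild type and in the difference between the effects 0 genes of these 4 lists were called. The shares of all genes tested that were called were 0%, 0% and 0.683%.

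In wing discs 1 of 27 other sarcomere genes was called, where 4.15% of all genes tested were. It was Fhos, a formin that elongates thin filaments, at 2.68 to 3.22 RPKM in Tet null and 8.52 to 9.86 RPKM in wild type. Its log2 fold change was -1.52 (limma, adjusted P = 1.1e-05). Among the chaperone partners 0 of 6 were called, and their median was 0.31 where all genes had -0.08. These 6 are not the same set as in IFM, since Hop was found by symbol only in discs and p23 only in IFM. The largest values in discs were 0.52 for Hsp83 and 0.44 for Hsc70-4, a constitutive Hsp70 (limma, adjusted P = 0.301 and 0.523). The other myosins and the light chain kinases and phosphatase had 0 called of 13 and of 7, with medians of 0.10 and 0.09. By size of the fitted value they were led by Myo81F (-0.83) and ninaC (-0.32) among the myosins and by sqa (-0.81) and gek (0.26) among the kinases. Wild-type disc library 2, with its raised background, held the highest value of the first 3, at 2.99 RPKM for Myo81F, 2.49 RPKM for ninaC and 2.55 RPKM for sqa, where the other 5 discs had at most 0.187, 0.932 and 0.338 RPKM, and Myo81F and sqa passed the limit on low values only through it.

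Over the 8 IFM libraries the genes that followed Mhc most closely were msl-2, Nf-YC, CG7289, CG12945 and kay, with Pearson's r of log2 values from 0.864 to 0.915. For unc-45 they were Suv3, lost, Pxd, Asator and CG3961, with r from 0.972 to 0.989. Among them msl-2 belongs to the dosage compensation complex of males, kay is the fly Fos and Suv3 is a mitochondrial RNA helicase. These are the highest of 8344 genes compared over 8 libraries that share their scaling, and are given as a description.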

How the data were processed

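RNA was extracted with Trizol, and paired-end libraries were made with the Ovation SoLo kit. The authors trimmed the reads with Cutadapt according to the methods (the submitters' processing notes list Trimmomatic 0.32), aligned them to dm6 with HISAT2 2.1.0, counted them per gene with HTSeq 0.11.2 and deposited RPKM values, in separate tables for IFM and wing discs. Per their notes the authors also used Cufflinks 2.2.1 and DESeq2 1.22.2. Because the tables are written with decimal commas, their unit was recorded as other, and every value deposited was read as RPKM after the commas had been replaced.

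The authors' DESeq2 needs counts, so that limma 3.58.1 in R 4.3.3 (lmFit, eBayes with trend) was used on log2(RPKM + 0.5), with genes kept where the libraries of a fit averaged 0.5 RPKM or more. Fold changes are on this scale, which understates those of low genes. P was adjusted by Benjamini-Hochberg over all genes tested, and a gene was called where it passed 0.05 in adjusted P and 1.5 in fold change. The script was tested on simulated data. All 8 genes passed the limit on low values in IFM, and 7 in discs. Reads per library were estimated from the spacing of low values (97.8 to 99.5% of them whole numbers of reads within 0.02).

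Members and lists were chosen with earlier results of these data known. From each list the called genes, or where none was called the pair with the largest absolute log2 fold change, are named. Genes were matched by symbol, since unc-45 has a different identifier in each table (7 of the 8 share theirs), and positions come from the BDGP6.54 annotation, Ensembl release 115. The replicate numbers of the disc labels were taken to pair the samples because same-numbered libraries deviated together (r = 0.176, 0.303 and 0.155), although Tet null 1 and wild type 3, with different numbers, also did (r = 0.191), and the other 5 such pairs had r of at most 0.0623. Tables and plots were made in Python 3.11.15 (pandas 2.3.3, numpy 2.4.6, matplotlib 3.10.9). The alternatives were other constants, limits on low values, scalings, spread models, a length correction, the replicate block and each replicate left out; a subtraction of background in discs, the mitochondrial reads left out between tissues and blocks by column number for Tet CD and Tet-GFP were chosen after seeing the data.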

Additional observations from a re-analysis of the deposited data

Results flagged for a closer look

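The chaperone unc-45 lay on opposite sides of its control in the tissues. Its log2 fold change between Tet null and wild type was -1.01 in IFM, where both Tet null libraries were below both wild-type libraries, and 0.46 in wing discs, where all 3 Tet null libraries were above all 3 of wild type. Neither value passed the adjusted threshold. The difference between the tissues was not tested, because the tables were normalised separately, and the tissues differ in age and number of libraries as well. The tables also list unc-45 under different identifiers, so that the exons counted may differ between the tissues.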

How the results depend on the processing

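Over the alternatives, 775 of 840 log2 fold changes of the 8 genes kept their direction and 65 changed sign; the causes were not tested. No gene of the 8 was called in any alternative of the IFM comparisons except Prm without Tet-GFP library 1 against the 3 lines. With 2 libraries per group, leaving out a library leaves a lone one that is assumed to vary like the rest.

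With the libraries scaled to the same total without mitochondrial genes, the median of all genes shifted by 0.19 in Tet CD against Tet-GFP, -0.21 in Tet-GFP against wild type, 0.30 in Tet null against Tet-GFP, 0.17 against the 3 lines and -0.35 in discs. Signs then changed for Mlc1 (0.043) in Tet null against wild type; for Mhc (0.12), Mlc1 (0.10), Mlc2 (0.083), Prm (0.0053) and fln (0.0106) in Tet CD against Tet-GFP; for Mlc2 (-0.18) and Mf (-0.060) in Tet-GFP against wild type; for Mlc1 (0.33) against Tet-GFP; for Mlc1 (0.20) and Unc-89 (0.18) against the 3 lines; for Mhc (-0.0045) and Mlc1 (-0.060) in the difference between the effects; and for Mhc (-0.055), Prm (-0.0027) and the kinase gene gek (-0.023) in discs. Under median-ratio scaling they changed for Mhc (0.033) and Mlc1 (0.021) in Tet-GFP against wild type and for Mhc (-0.0069) in Tet null against Tet-GFP. With the length correction they changed for Mhc in Tet null against wild type (-0.29, the same with the replicate block), against Tet-GFP (-0.33), against the 3 lines (-0.23) and in the difference between the effects (-0.062, the same with the replicate block), for Unc-89 (-0.23) against Tet-GFP, and for Mhc (0.051), Mlc1 (0.057) and unc-45 (0.0033) in Tet-GFP against wild type. The sign of ninaC in discs changed with the background subtracted (0.25) and without wild-type disc library 2.

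With each replicate left out in turn, values in Tet null against wild-type IFM ran from -0.12 to 0.12 for Mhc, -0.16 to 0.017 for Mlc1 and -0.018 to 0.84 for fln. In Tet CD against Tet-GFP they ran from -0.34 to 0.12 for Mhc, -0.52 to 0.074 for Prm, -0.61 to 0.17 for fln, -0.66 to 0.066 for Mf and -0.090 to 0.77 for unc-45. In Tet-GFP against wild type they ran from -0.24 to 0.21 for Mhc, -0.066 to 0.015 for Mlc1, -0.47 to 0.12 for Prm, -0.14 to 0.53 for Mf and -0.70 to 0.58 for unc-45. In Tet null against Tet-GFP they ran from -0.21 to 0.24 for Mhc, -0.14 to 0.042 for Mlc1, -0.047 to 0.31 for Mlc2 and -0.0085 to 0.35 for Unc-89. Against the 3 lines they ran from -0.040 to 0.13 for Mhc, -0.10 to 0.077 for Mlc1, -0.77 to 0.081 for fln and -0.11 to 0.052 for Unc-89, and 0 to 1 of the 8 genes were called. In the difference between the effects they ran from -0.11 to 0.34 for Mhc, -0.032 to 0.15 for Mlc1 and -0.59 to 0.13 for Mf. In discs they ran from -0.27 to 0.64 for Mhc, -0.024 to 0.55 for Prm and -0.62 to 0.12 for ninaC, and 0 to 2 of the 8 genes were called.

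In discs the replicate block called 1 of the 8 genes, Mlc2, and the background subtraction with the block also 1, Mlc2 (0.70; limma, adjusted P = 0.0118), which was not called with the subtraction alone (limma, adjusted P = 0.149) or with the length correction and the block (0.77; limma, adjusted P = 0.0924). The block raised the calls over all genes from 524 to 936, and eBayes without the trend gave 34. In Tet null against wild-type IFM the numbers did not pair the samples (r = 0.0864), and the replicate block called 566 of all genes and 0 of the 8. In Tet CD against Tet-GFP the column numbers only name the samples (r = 0.475 over 2 pairs), and the block called 0 of the 8. No paired analysis was run in Tet-GFP against wild type, Tet null against Tet-GFP and Tet null against the 3 lines. The column numbers of these groups match only in part. Calls over all genes ranged over the alternatives from 0 to 799 in Tet null against wild type (702 as reported), 0 to 277 against Tet-GFP (1), 13 to 1172 against the 3 lines (983) and 0 to 128 in the difference (57), and the lowest count in the first of these and against the 3 lines came without a replicate. In Tet CD against Tet-GFP and Tet-GFP against wild type they reached 17 and 15. The share of higher among called genes was 40.3% in discs and became 14.1% with equal totals and 57.7% with the length correction, 57.7% against the 3 lines and 72.4% with equal totals, and 66.4% in Tet null against wild type and 49.3% with all 4 groups in the fit. Depth limits fln in discs, where it rests on 0 to 28 reads per library.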
